A study of Homo sapiens
Mus musculus with 6 samples.

Results

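The 7 genes described here, Sdr16c6, Sdr16c5, Elovl3, Scd3, Awat2, Dgat2l6 and Far2, encode lipid and retinoid enzymes of the mouse sebaceous gland. They were measured in the host tissue of human tumours grown under mouse skin. The genes were picked from a host table of 40579 gene names because Sdr16c6 was listed at 0 in the laminin tumours, and all 7 were found. The comparison of laminin with control tumours therefore chose them, and their own differences are given below as a description. The 3 laminin tumours were HT29 xenografts made to overexpress laminin alpha 1 of the mouse, a chain of the laminins in basement membranes, and the 3 control tumours were HT29 xenografts without it. HT29 is an established human colorectal cancer cell line. All 6 tumours grew subcutaneously for 4 weeks in nude mice, which lack a functional Foxn1 gene and have defective hair and few T cells. The sources used here do not give the age, sex or substrain of the hosts, or whether the cells came from 1 clone.

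Sebaceous glands are lobes of lipid-filled cells attached to hair follicles in the skin. Their cells, the sebocytes, make sebum, a mixture rich in wax esters and triglycerides, and release it by bursting. In wax ester synthesis a fatty acid is built and elongated, a desaturase may place a double bond, a reductase turns one fatty acyl chain into a fatty alcohol, and an acyltransferase joins this alcohol to another acyl chain. Sebocytes also take up and oxidise retinol. A subcutaneous tumour sits beneath the skin, so skin tissue is not part of a tumour but can lie next to it.

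Each species had its own table, and the values used are 1 deposited value per group. Levels are given as parts per 1000000 of the summed mouse or human signal (ppm). The mouse values follow read numbers and carry no correction for gene length, so a level is compared between groups and not between genes. Mouse Lama1, the overexpressed gene, was at 1077 ppm in laminin tumours and 4.75 ppm in control tumours. Markers of fibroblasts, mural cells, endothelium and blood cells were at similar levels. Of 7 such genes tested 0 passed the authors' test, 0 had an unadjusted p under 0.05, and they summed to 24206 ppm in laminin and 25357 ppm in control tumours. The collagen genes Col1a1 and Col3a1 held most of both sums, which therefore say little about the other cells. The blood cell gene Ptprc had 262 ppm in laminin and 200 ppm in control tumours, and Adgre1 was not found. Fewer cells of a type and less RNA per cell cannot be told apart in these bulk samples.

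All 7 sebaceous genes were lower in laminin than in control tumours, and 4 of them were listed at 0 in laminin tumours. An exact 0 can be a failed estimate, and the epidermal gene Flg was listed at 0 in both groups of the mouse table. Whether the 0 values of the 4 genes are failed estimates was not tested. Of all mouse entries with signal, 54.9% were lower in laminin tumours and 7.42% were listed at 0 there, as were 1.99% of the tested ones. Since the rule used this contrast, nothing is read from these shares about the 7 genes. Together the genes held 5.11 ppm in laminin and 158 ppm in control tumours. Elovl3 made up 41.1% of that control sum, Far2 27.8% and Sdr16c6 19.5%, and the other genes each made up at most 5.37%.

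**Figure D1:**
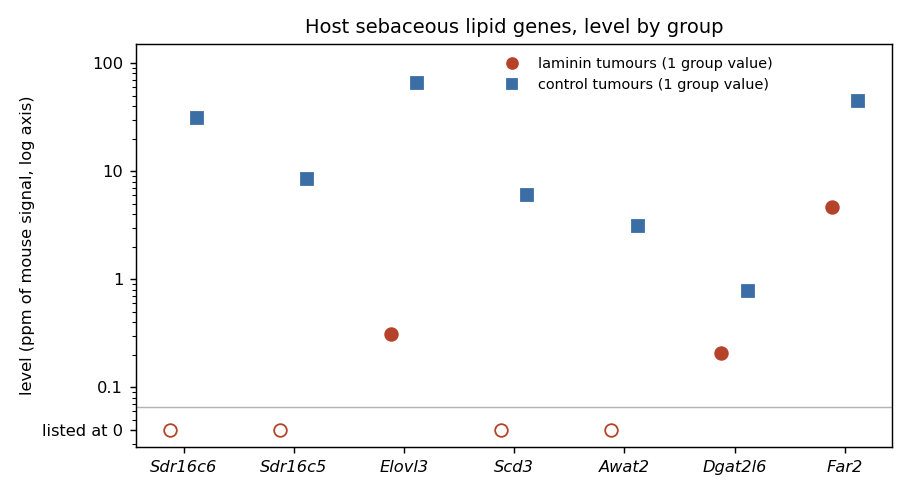
Level of each of the 7 genes in ppm of the summed mouse signal (log axis, with a separate lane for genes listed at 0) in laminin tumours (circles) and control tumours (squares), 1 deposited group value each, without error bars because each is a single group value. Every laminin circle lies below its control square, and Sdr16c6, Sdr16c5, Scd3 and Awat2 are listed at 0 in laminin tumours.

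Sdr16c6 and Sdr16c5 encode short-chain dehydrogenases that oxidise retinol to retinaldehyde, the step before retinoic acid. Sdr16c6 (mm10 chromosome 4, 4056666 to 4077514) was listed at 0 in laminin tumours and had 30.9 ppm in control tumours. Sdr16c5 (chromosome 4, 3995942 to 4019663) was likewise listed at 0 in laminin tumours and had 8.51 ppm in control tumours. The loci are neighbours, 37003 bases apart. The genes on either side did not share their pattern. Chchd7, on the side of Sdr16c5, had 10.9 ppm in laminin and 14.2 ppm in control tumours, and its q-value was 0.960 in the authors' deposited table. Penk, the enkephalin precursor gene 56022 bases beyond Sdr16c6, was higher, at 192 ppm in laminin against 78.8 ppm in control tumours, and the authors' deposited table gave it a q-value of 0.00238.

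Elovl3 and Scd3 act on the fatty acyl chain. Elovl3 elongates long saturated and monounsaturated fatty acids, in sebocytes and also in brown fat. Elovl3 (chromosome 19, 46131899 to 46148325) had 0.309 ppm in laminin and 65.1 ppm in control tumours. Its laminin value equals 3 reads. The level was 211-fold lower in laminin tumours (95% exact interval 71.7 to 1027, counting error only), and the authors' deposited table gave p = 0.170 and a q-value of 0.810 for this gene. Its locus entry is shared with Pitx3, and the protocols name no strand-keeping step, so reads of overlapping genes could not be told apart. Scd3, a delta-9 desaturase of skin, introduces a double bond into saturated acyl chains. Scd3 (chromosome 19, 44203288 to 44244016) was listed at 0 in laminin tumours and had 6.03 ppm in control tumours. The 4 Scd genes are close copies of each other, so their own values are uncertain where reads could be split among them. The genes beside Elovl3, Nolc1 and Gbf1, had 45.5 and 84.4 ppm in laminin tumours and 41.9 and 86.8 ppm in control tumours. Beside Scd3, Bloc1s2a (5.91 ppm in laminin, 7.02 ppm in control tumours) and Scd2 (638 ppm in laminin, 687 ppm in control tumours) did not pass the authors' test.

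Far2 supplies fatty alcohols by reducing fatty acyl-CoA, and Awat2 joins them to acyl chains as wax esters. Far2 was at 4.60 ppm in laminin and 44.1 ppm in control tumours, 9.58-fold lower, and its q-value was 0.950 in the authors' deposited table. Its locus entry (chromosome 6, 148047416 to 148444352) is shared with Rps4y2, Tmtc1 and Ergic2, whose levels differed by less, as did those of its neighbours Ccdc91 (33.7 ppm in laminin, 38.8 ppm in control tumours) and Ipo8 (62.9 ppm in laminin, 85.4 ppm in control tumours), and an overlap of reads between these genes was not tested. Awat2 (chromosome X, 100402222 to 100412562) was listed at 0 in laminin tumours and had 3.09 ppm in control tumours. Dgat2l6, a relative of Awat2 in the DGAT2 acyltransferase family, had 0.206 ppm in laminin and 0.773 ppm in control tumours. Dgat2l6 (chromosome X, 100524838 to 100546108) was too low for the authors to test. Its values correspond to 2 reads in laminin and 5 in control tumours, and the interval of the ratio, 0.616 to 39.5 (95% exact, counting error only), includes no difference. Eda, which lies 1462 bases from Awat2, had 3.01 ppm in laminin and 6.27 ppm in control tumours and did not pass. Igbp1, which lies between Awat2 and Dgat2l6, was at 59.6 ppm in laminin and 61.3 ppm in control tumours, and the authors' deposited table gave it a q-value of 0.996.

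The authors' q-value was under 0.05 for 4 of the 6 genes they tested, namely those listed at 0 in laminin tumours. Over all mouse genes tested, 2.96% were called lower at that threshold, a share given for background only because the contrast chose these genes. Genes listed at 0 were called more often than other genes of similar level. Among tested genes with at least 30 ppm in control tumours, 9 of 10 that were listed at 0 in laminin tumours were called. Of those above 0 but at least 16-fold lower, which include Elovl3, 32 of 84 were called. Far2, at 9.58-fold lower, is in neither set.

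The low values allowed the reads of single tumours to be separated. Low values of a group could be written as sums of whole multiples of 3 steps, each step taken here as the worth of 1 read in 1 of the 3 tumours. One read was worth 0.103 to 0.254 ppm in laminin and 0.152 to 0.155 ppm in control tumours. The tumours are called L1 to L3 and C1 to C3 in order of falling step size, since the steps cannot be tied to the labels. Among values of up to 60 reads, between 88.7% and 94.0% had at least 1 whole-number solution, depending on group and read range. After a shift of every value by 0.3 signal units, between 0% and 3.50% did.

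The control reads of the 4 genes that could be assigned came almost wholly from 1 control tumour, C1. Sdr16c5 had 55 reads in C1, 0 in C2 and 0 in C3. Scd3 had 37 reads in C1, 0 in C2 and 2 in C3. Awat2 had 18 reads in C1, 2 in C2 and 0 in C3. Dgat2l6 had 5 reads in C1 and 0 in the other two, and its 2 laminin reads both lay in L3. In all, C1 held 115 of 119 control reads of these genes. The 3 steps of the control tumours differ little, so a gene shared evenly would have had about the same number of reads in each.

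**Figure D2:**
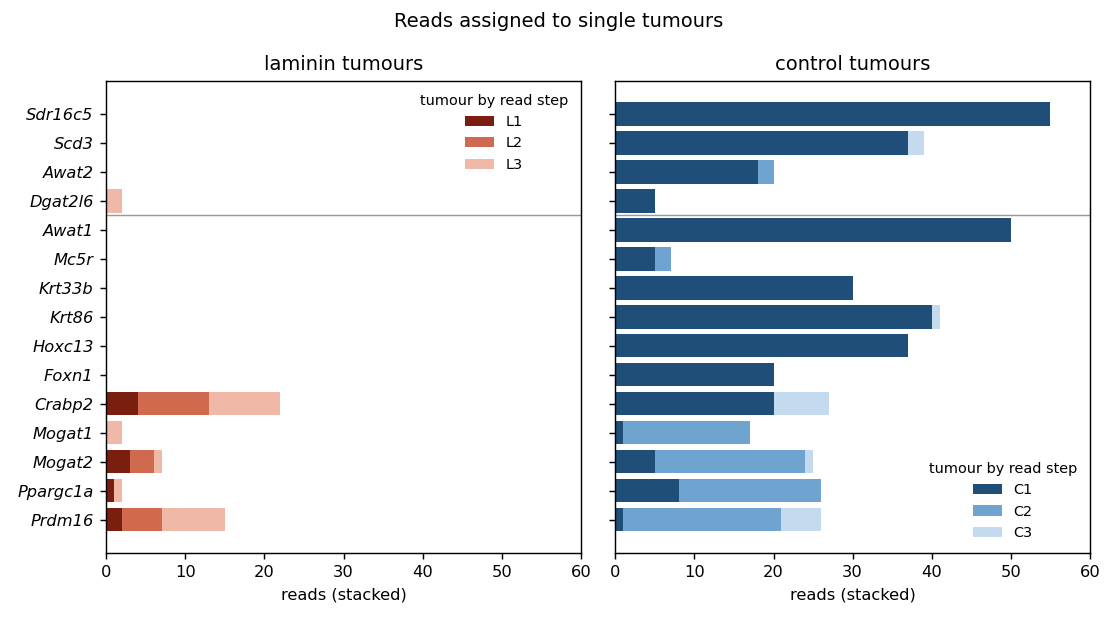
Reads per gene assigned to single tumours (stacked bars, laminin tumours L1 to L3 on the left and control tumours C1 to C3 on the right) for the 4 sebaceous genes above the line and for other host genes with assignable reads below it. Sdr16c5 has all 55 control reads in C1, while Mogat1, Mogat2 and Prdm16 have most of theirs in C2.

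Without C1, the control level of Sdr16c5 would be 0 ppm, that of Scd3 0.455 ppm, that of Awat2 0.458 ppm and that of Dgat2l6 0 ppm. With C1 but without C2 or C3, their control levels were higher than with all 3 tumours, at 12.8 ppm for Sdr16c5, 8.58 to 9.04 ppm for Scd3, 4.18 to 4.63 ppm for Awat2 and 1.16 ppm for Dgat2l6. In laminin tumours 3 reads would be worth 0.309 to 0.762 ppm, so the level of these genes in C2 and C3 could not be told from that in laminin tumours at this depth. The authors' q-values for Sdr16c5, Scd3 and Awat2 therefore rest on reads of 1 control tumour.

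The other 3 genes had too many reads for a single solution, and their split over the control tumours is not known. Sdr16c6 had 200 to 203 control reads, and 18 solutions placed between 8 and 196 of them in C1. Elovl3 had 422 to 428 control reads in 70 solutions, with 0 to 351 of them in C1. Far2 had 286 to 290 control reads in 33 solutions, with 2 to 229 in C1. At such read numbers many sums can match a value by chance. All 3 laminin reads of Elovl3 lay in L3, the tumour with the smallest step and hence the deepest library. The laminin value of Far2 had no whole-number solution.

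The leaning to C1 was set beside all mouse genes of similar depth, among which these 4 sebaceous genes, Sdr16c5, Scd3, Awat2 and Dgat2l6, are themselves counted. Of 4112 genes with about 5 to 60 control reads, 3764 had a single solution, and C1 held 40.4% of their reads, C2 31.8% and C3 27.8%. Among the 447 of them that were listed at 0 in laminin tumours, 272 (60.9%) had at least 90% of their control reads in C1, against 28 in C2 and 3 in C3. Among the 3317 that were above 0 in laminin tumours, 133 (4.01%) had at least 90% in C1. Sdr16c5, Scd3, Awat2 and Dgat2l6 all had at least 90% there. Sdr16c5, Scd3 and Awat2 were thus like most genes listed at 0, and their leaning was not particular to sebaceous genes.

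**Figure D3:**
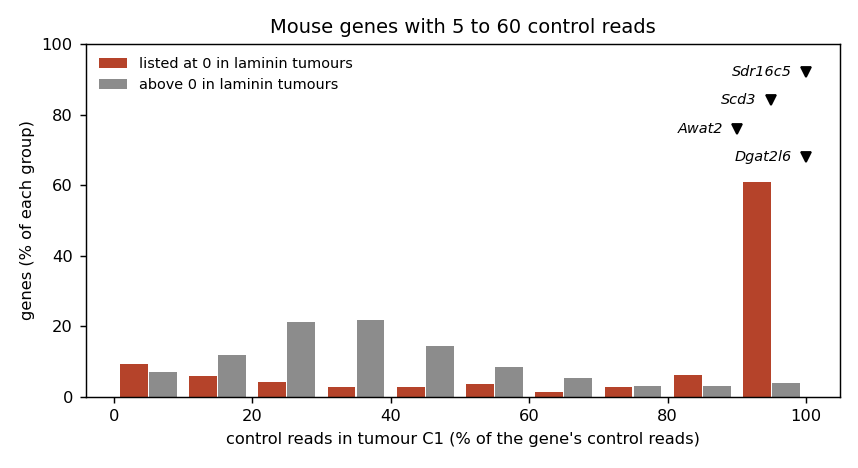
Share of a gene's control reads that lay in tumour C1, in bins of 10%, for mouse genes with 5 to 60 control reads that were listed at 0 (447 genes) or above 0 (3317 genes) in laminin tumours. Triangles mark the shares of 4 sebaceous genes on the horizontal axis only. They lie at 90% or more, in the bin that holds 60.9% of the genes listed at 0 and 4.01% of the others.

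Other sebocyte genes were also lower in laminin tumours. Of 17 tested genes of a list of 18, 6 fell and 0 rose, against 2.96% of all tested mouse genes called lower and 0.579% called higher. Their median log2 ratio was -1.98, against -0.03 over all tested genes. Awat1, the paralog of Awat2 that lies 26139 bases from Dgat2l6, was listed at 0 in laminin tumours and had 7.73 ppm in control tumours, with all 50 control reads in C1. Fatty acid synthase Fasn fell to 76.4 ppm in laminin tumours, against 3323 ppm in control tumours. The glutathione transferase Mgst1 fell to 111 ppm, against 342 ppm in control tumours, and the lipogenic receptor gene Pparg to 8.01 ppm, against 31.7 ppm. Dgat2, which completes triglycerides, and the elongase Elovl6 also fell, to 9.90 and 10.4 ppm in laminin tumours, against 244 and 249 ppm in control tumours. Fasn, Pparg, Dgat2 and Elovl6 serve adipocytes as well as sebocytes.

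Several genes of the sebocyte list did not pass although their levels lay far apart, and not all of them are particular to sebocytes. The desaturase Scd1 was at 207 ppm in laminin and 12931 ppm in control tumours (q = 0.794 in the authors' deposited table). Krt79, a keratin of the sebaceous duct, was at 0.254 ppm in laminin tumours, which is 1 read, and at 122 ppm in control tumours (q = 0.112 in the authors' deposited table). Elovl4, which makes very long chains, had 0.845 ppm in laminin and 251 ppm in control tumours (q = 0.444 in the authors' deposited table). The melanocortin receptor gene Mc5r was not tested, was listed at 0 in laminin tumours, and had 5 reads in C1, 2 in C2 and 0 in C3. Soat1, Lrig1 and Prdm1, which other host cells also express, had 235, 77.7 and 48.7 ppm in laminin tumours and 225, 75.6 and 36.4 ppm in control tumours.

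The relatives of the 7 genes were described family by family, and differences between relatives were not tested. As background for each family, 2.96% of all tested mouse genes were called lower and 0.579% higher. Of the short-chain dehydrogenases related to Sdr16c6, none of 3 tested was called, and by value all 3 were higher in laminin tumours. Rdh10, the main retinol dehydrogenase of many tissues, had 84.4 ppm in laminin and 62.2 ppm in control tumours. Dhrs3, which acts in the reverse direction, had 119 ppm in laminin and 89.5 ppm in control tumours, and Hsd17b11 had 114 and 89.0 ppm. Unadjusted, the smallest p of these 3 was 0.0904 in the authors' deposited table. Hsd17b13 of the same family was not tested. It was listed at 0 in laminin tumours and had 4 control reads, all in C1. Of 5 tested elongases other than Elovl3, Elovl6 and Elovl5 fell, and Elovl5 had 109 ppm in laminin against 199 ppm in control tumours. Elovl7 had 0.374 ppm in laminin and 22.7 ppm in control tumours and, like Elovl4, did not pass (q = 0.709 in the authors' deposited table). Elovl1 had 77.8 ppm in laminin and 83.7 ppm in control tumours (q = 0.996 in the authors' deposited table).

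None of the 3 other stearoyl-CoA desaturase genes passed. Scd1 had the levels given above, 62.5-fold lower in laminin tumours, and Scd2, the form of most tissues other than fat and liver, was close to equal. Scd4 was near its limit of detection, with 6 reads in each group, 3, 2 and 1 in L1, L2 and L3 and 1, 5 and 0 in C1, C2 and C3. In the DGAT2 family Awat1 and Dgat2 fell and 0 of 4 tested genes rose. The monoacylglycerol acyltransferase genes Mogat1 and Mogat2 did not pass, at 0.206 and 1.37 ppm in laminin and 2.60 and 3.83 ppm in control tumours. Their control reads lay mostly in another tumour than those of Awat2 and Dgat2l6, at 16 of 17 reads in C2 for Mogat1 and 19 of 25 in C2 for Mogat2. Far1, the other fatty acyl-CoA reductase, had 108 ppm in laminin and 127 ppm in control tumours and did not pass (q = 0.937 in the authors' deposited table).

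Of the listed genes of fatty acid and triglyceride synthesis, 10 of 10 tested fell, against 2.96% of all tested mouse genes called lower. Their median log2 ratio was -3.26, against -0.03 over all tested genes. Beside Fasn, which the sebocyte list also holds, Thrsp fell to 3.86 ppm in laminin tumours, against 348 ppm in control tumours. The carboxylase gene Acaca fell to 15.3 ppm, against 163 ppm in control tumours, and malic enzyme Me1 to 20.4 ppm, against 257 ppm. These genes are active in fat as well as in sebaceous glands.

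Tested markers of skin, fat and muscle were also lower in laminin tumours by group value. No control reads of the keratinocyte, white adipocyte or skeletal muscle genes could be assigned to single tumours. Whether these genes were high in the same control tumour as the sebaceous genes is therefore not known. Over all tested mouse genes, 2.96% were called lower and 0.579% higher, as background for the counts that follow. Of 13 tested keratinocyte genes 6 fell and 0 rose. The list of 14 summed to 18.7 ppm in laminin and 1885 ppm in control tumours. Of its defining genes Krt1 fell and was listed at 0 in laminin tumours. Krt5 and Krt14 had 1.02 and 1.78 ppm in laminin and 270 and 233 ppm in control tumours. Neither of them passed (q = 0.258 and 0.125 in the authors' deposited table). Of 11 tested hair follicle genes 4 fell and 0 rose, and the list of 15 summed to 7.82 ppm in laminin and 1290 ppm in control tumours. The hair keratin genes Krt31, Krt33b and Krt35 were listed at 0 in laminin tumours. Of 10 white adipocyte genes 7 fell and 0 rose, with summed levels of 389 ppm in laminin and 8550 ppm in control tumours and none at 0. Of 7 tested brown adipocyte genes 2 fell, Ucp1 and Cox8b, and the list had summed levels of 52.9 ppm in laminin and 290.1 ppm in control tumours. Dio2 and Prdm16 of this list differed less and did not pass, at 38.8 and 2.17 ppm in laminin and 45.8 and 3.97 ppm in control tumours. Of 8 skeletal muscle genes 6 fell and 0 rose, with summed levels of 701 ppm in laminin and 4345 ppm in control tumours. The part of skin, fat and muscle tissue in the levels of the 7 genes was not tested.

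**Figure D4:**
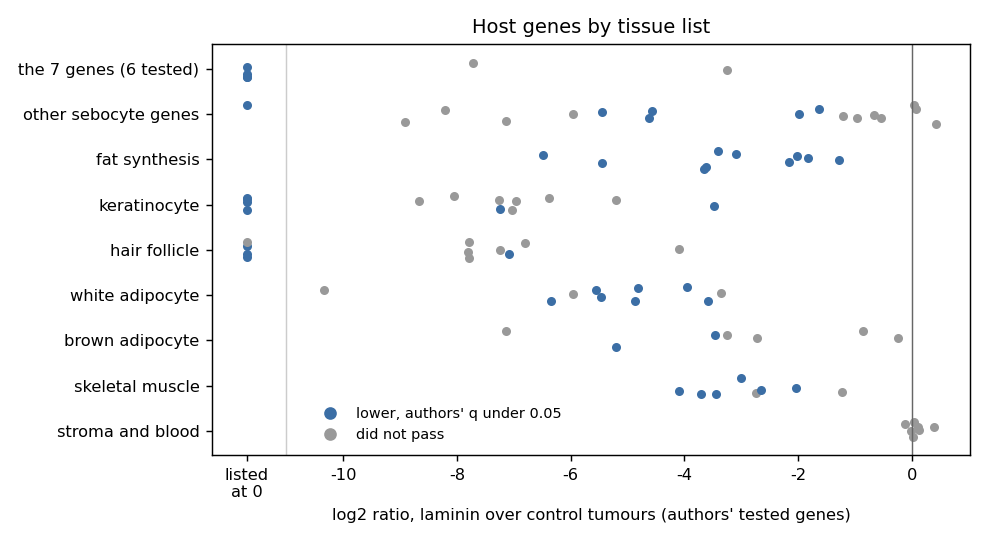
Log2 ratio of laminin over control tumours for each tested gene (points) of the 7 genes and of 8 tissue lists, with genes listed at 0 in laminin tumours in the lane at the left. Blue points are lower at an authors' q under 0.05 and grey points did not pass; stroma and blood genes lie near 0, while the skin, fat and muscle genes lie to its left.

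Of 15 hair follicle genes 6 had assignable control reads, and C1 held 156 of these 161 reads. That is close to the 115 of 119 reads of the 4 assignable sebaceous genes, and a difference from other genes listed at 0 in laminin tumours was not tested. Krt33b had 30 of 30 reads in C1, Krt86 40 of 41, and the hair regulators Hoxc13 and Foxn1 had 37 of 37 and 20 of 20. Neither Hoxc13 nor Foxn1 was tested by the authors, and Foxn1 is not functional in nude mice. Few fat genes could be assigned, namely 0 of 10 white and 2 of 8 brown adipocyte genes, and none that was called. The adipocyte hormone gene Lep had 75 control reads in 2 solutions, which placed at most 26 in C1. The reads of the 2 brown fat genes lay mostly in C2. Ppargc1a had 8 reads in C1, 18 in C2 and 0 in C3, and Prdm16 had 1, 20 and 5. Elovl3 and Cidea, which brown fat and sebocytes share, had all of their 3 and 4 laminin reads in L3. Over the 6 brown fat genes with assignable laminin reads, 64.4% of 73 reads lay in L3, ranging from 26 of 26 for Ucp1 to 2 of 14 for Cox8b. Of the others, Prdm16 had 8 of 15 there, Cox7a1 6 of 12 and Ppargc1a 1 of 2. A gene shared evenly would also have had more reads in L3 than in L1 or L2. One read was worth 0.103 ppm in L3, 0.169 ppm in L2 and 0.254 ppm in L1. A leaning of brown fat genes to L3 beyond this difference in steps was not tested. Over 8 keratinocyte genes, 57.5% of 40 laminin reads lay in L1, including all 4 of Krt5 and all 7 of Krt14 but none of Sfn and Trp63.

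The 5 genes nearest to Sdr16c6 in control level were all known from skin or immune cells. Nearness was the distance on the log2 scale among genes listed at 0 in laminin tumours with an authors' q under 0.05. With Sdr16c6 itself there were 143 such genes, and the share of skin genes among them was not counted. Levels carry no correction for gene length, so nearness describes read numbers and is no result about Sdr16c6. The 5 genes were Krt6b (31.7 ppm in control tumours), Stfa3 (28.8 ppm), Krtap7-1 (28.6 ppm), Krtap8-1 (25.82 ppm) and Krt26 (25.81 ppm). Krt6b encodes a keratin of stressed epidermis and hair follicles, Krt26 a keratin of the inner root sheath, the Krtap genes hair shaft proteins and Stfa3 a cystatin of myeloid cells. Krt6b and the Stfa and Krtap genes have close copies, which makes their own values uncertain.

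The human tumour cells expressed some genes of the same families, measured in the separate human table, which played no part in choosing the 7 genes. SDR16C5 (ENSG00000170786) fell to 15.2 ppm in laminin tumours, against 24.6 ppm in control tumours, 1.62-fold lower, with p = 5e-05 in the authors' deposited table and 0.00121 after Benjamini-Hochberg adjustment over 25838 tested genes. FAR2 (ENSG00000064763) had 105 ppm in laminin and 86.3 ppm in control tumours and did not pass (adjusted p = 0.478 from the authors' test). ELOVL3 had 0.0506 and 0.0411 ppm, AWAT2 was listed at 0 in both groups, and DGAT2L6 had 0.0259 ppm in laminin tumours and was listed at 0 in control tumours. An exact 0 can be a failed estimate, and ELOVL5, an elongase gene of most cells, was also listed at 0 in both groups.

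Of 23 human genes of these families 17 were tested, 2 fell and 4 rose, against 2.45% of all tested human genes called lower and 5.63% called higher. Their median log2 ratio was 0.06, against 0.0039 over all tested human genes. The main desaturase SCD (ENSG00000099194) fell to 526 ppm in laminin tumours, against 719.8 ppm in control tumours (adjusted p = 0.00836 from the authors' test). The acyltransferase genes MOGAT2 and MOGAT3 rose to 7.57 and 33.9 ppm in laminin tumours, against 2.99 and 22.9 ppm in control tumours. DGAT1, which completes triglycerides, rose to 89.6 ppm, against 58.7 ppm in control tumours. ELOVL7 rose to 63.4 ppm, against 47.9 ppm. Host Dgat1 fell to 14.3 ppm in laminin tumours, against 58.0 ppm in control tumours, and the difference between the species was not tested.

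**Figure D5:**
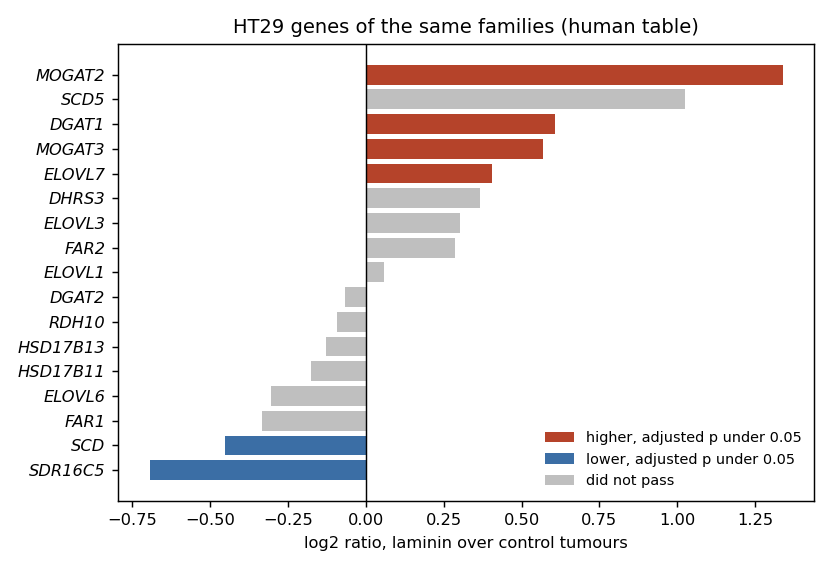
Log2 ratio of laminin over control tumours for the 17 tested human genes of the same enzyme families, ordered by ratio. Red bars rose and blue bars fell at an adjusted p under 0.05, and grey bars did not pass; SDR16C5 and SCD fell, and MOGAT2, DGAT1, MOGAT3 and ELOVL7 rose.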

How the data were processed

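RNA of 3 laminin and 3 control tumours was sequenced from poly-A selected TruSeq libraries, per the labels' protocols. The submitters' processing notes name TopHat2, Cufflinks, hg38 and mm10, without their roles or how reads of both species were kept apart. Per the file headers, the authors deposited 1 signal value per gene and group with no stated scale, a log2 ratio and a p-value, plus a q-value in the mouse table. A score, the deposited test statistic, was not used. Whether reads kept their strand is not stated. One mouse line with shifted cells was left out.

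Signal was divided by the mean group sum of its table and multiplied by 1000000. Per gene the row with the most signal was kept. Significance is the authors' own: q under 0.05 for mouse genes, and their p adjusted by Benjamini-Hochberg over all tested genes for human genes. The group values carry no spread between tumours. Human coordinates are not printed. Read steps were found from the most frequent low values, and each value was searched for whole-number sums within its 6 digits, for up to 500 reads. This search was tested on simulated data for values of up to 60 reads. Python 3.11.15, numpy, pandas and matplotlib were used. The 7 genes and all lists were chosen with earlier results of these data known. Text names the 7 genes, genes of their families, neighbours of at least 1 ppm, and the 5 genes nearest to Sdr16c6. It also names some list members past the threshold or with high or defining levels. Called genes of the white adipocyte and skeletal muscle lists, and most called keratinocyte genes, are counted without being named. Examples of reads by tumour and of untested list genes were chosen after their values were seen. One gene of the sebocyte list is counted but not reported here.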

Additional observations from a re-analysis of the deposited data

How the results depend on the processing

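No paired analysis was possible because the values used are per group and the replicate numbers, given in accession order, pair no tumours. An added constant or a common scaling could not turn the direction of the 7 genes, so these settings bear on size alone. The log2 ratio of Elovl3, -7.72 without an added value, was -5.66 with 1 ppm and -3.72 with 5 ppm added. With 5 ppm added, Awat2 was at -0.69 and Dgat2l6 at -0.15. With the tolerance made 2 times wider, 4 genes still had a single solution for their control reads. Of the counts recomputed, 5 moved by more than 1.5 times, and of the 7 genes' own ratios and levels 22 did. At q under 0.01, 44 mouse genes in place of 83 were higher, 1 brown fat gene in place of 2 fell, 1 elongase in place of 2 fell, and 1 retinoid gene in place of 2 rose. At 5 ppm or more, 1 gene of the DGAT2 family in place of 2 fell. A stricter threshold or minimum lowers such counts by construction. Leaving out C1, chosen as an alternative after the data were seen, ended the control signal of Sdr16c5 and Dgat2l6. Leaving out single tumours was possible only for the 4 genes with assigned reads. Reads limit Dgat2l6, Awat2 and Scd3 most, and intervals cover counting error alone.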

Other observations

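Retinoid genes of the host other than Sdr16c5 and Sdr16c6 moved in both directions. Of 13 tested genes for retinoid uptake, oxidation, storage and response 2 rose and 1 fell, against 0.579% of tested mouse genes called higher and 2.96% called lower, and their median log2 ratio was 0.41. The retinol uptake receptor Stra6 rose to 46.7 ppm in laminin tumours, against 10.00 ppm in control tumours. The retinaldehyde dehydrogenase Aldh1a3, which makes retinoic acid, rose to 130 ppm, against 66.7 ppm in control tumours. Its relative Aldh1a2 had 38.0 ppm in laminin and 18.2 ppm in control tumours and did not pass (q = 0.104 in the authors' deposited table). The retinol carrier Rbp4, which fat and liver secrete, fell to 11.1 ppm in laminin tumours, against 50.4 ppm in control tumours.

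Lrat, which stores retinol as retinyl esters, was not tested. It had 2 laminin reads, both in L3, and 14 control reads, all in C1. Stra6, which rose, had 65 control reads, 43 of them in C1, 8 in C2 and 14 in C3. Crabp2, a carrier of retinoic acid, had 4, 9 and 9 reads in L1, L2 and L3 and 20, 0 and 7 in C1, C2 and C3.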
